A study of Mus musculus with 6 samples.

Results

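Potassium channel genes of the delayed rectifier and background currents were examined in mouse heart RNA. The 8 genes, chosen by symbol in the authors' deposited expression table, were Kcnq1, Kcne1, Kcne4, Kcne1l, Kcnh2, Kcnk3, Kcnk2 and Kcnn2, out of 24525 gene rows. All 8 had a row, and 7 reached 1 TPM in at least 3 libraries and were tested. TPM is a relative transcript abundance, corrected for the length of each transcript and summing to the same total in every library. The libraries were 3 labelled DKO (double knockout, replicates 7, 8 and 9) and 3 labelled WT (wild type, replicates 4, 5 and 6), made from total RNA of hearts of mice aged 3 to 6 months. Per the series design, DKO mice were Mbnl1-/-; Mbnl2cond/cond; Myh6-Cre+/-. Mbnl1 was therefore lost in every cell and Mbnl2 in cardiomyocytes, where the Myh6 promoter drives Cre, while other heart cells kept an intact Mbnl2 gene. No more than "WT" is given for the WT animals, so effects of Cre itself and of the lost genes cannot be told apart. MBNL proteins regulate alternative splicing and are sequestered by expanded repeats in myotonic dystrophy, and the study asks what their loss does in the heart.

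Delayed rectifier channels open slowly on depolarisation and carry the outward potassium current that ends the cardiac action potential. KCNQ1 forms the pore of the slow delayed rectifier and KCNE1 is its small single-pass partner, while KCNH2 forms the pore of the rapid one. Two-pore channels such as TASK-1 (Kcnk3) and TREK-1 (Kcnk2) conduct at rest, and SK2 (Kcnn2) opens on a rise in calcium. In adult mouse ventricle the rectifier currents are small beside the transient outward and ultrarapid currents, and inherited defects of the human KCNQ1, KCNE1 and KCNH2 genes cause long QT syndrome.

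Values below are TPM per library or mean ± SD of n = 3 libraries per group, and each difference is the DKO mean less the WT mean of log2(TPM + 1), a scale that understates changes of genes at low TPM. TPM keeps no read counts, and sequencing depth is therefore unknown. Adjusted p-values are from limma with Benjamini-Hochberg adjustment over all 14541 genes tested, at a threshold of 0.05. Totals lay between 999963 and 999991 TPM, with 14084 to 14623 genes at 1 TPM or more per library. The labels do not state that each library came from its own animal. A p-value here reflects the spread among these libraries alone, which may be technical. Mbnl1 had 102, 108 and 107 TPM in DKO libraries against 161, 160 and 145 TPM in WT libraries, and Mbnl2 had 227, 240 and 245 TPM in DKO libraries against 189, 168 and 149 TPM in WT libraries. The log2 difference was -0.55 for Mbnl1 and 0.49 for Mbnl2 (limma, BH adjusted p = 0.00673 and 0.0232), both called, so Mbnl2 goes against the label; its call held in 1 of the 6 fits that left out a library. A gene-level sum holds reads from outside a deletion and from cells without Cre, so neither value checks the deletion. The labels of DKO 7 disagree, since the genotype field reads WT while title and source name read DKO. That library was kept as DKO. With it counted as WT, limma called 0 genes higher and 1 lower of all tested, so every call of a higher gene in the text depends on this choice; Mbnl1 then differed by -0.37 and Mbnl2 by 0.42 (limma, BH adjusted p = 0.529 and 0.501). In 2 of 3 DKO libraries (7 and 8) and 0 of 3 WT libraries Xist, the RNA of the inactive X chromosome, exceeded the Y-linked Ddx3y. The labels give no sex, and effects of sex and of the lost genes cannot be told apart in DKO 7 and 8. All 8 cardiomyocyte markers checked passed the filter, with 1 called higher (Ttn) and 2 lower (Tnni3 and Ryr2), and 7 at an unadjusted p under 0.05. Over all genes tested 6.51% were called higher and 4.22% lower, and 27.0% had an unadjusted p under 0.05. The sum of the 8 markers was 42540 to 45445 TPM in DKO and 46430 to 49309 TPM in WT libraries, lower in DKO with no overlap. Like Ttn, Actc1 (mean 11973 TPM in DKO, 10366 TPM in WT) and Actn2 (1674 and 1430 TPM) went the other way without overlap, uncalled.

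Of the 7 channel genes tested, 1 was called higher in DKO, Kcne1, and 0 were called lower (limma), against 6.51% of all genes tested called higher and 4.22% called lower. At an unadjusted p under 0.05 there were 2 higher, Kcne1 and Kcne4, and 0 lower, against 16.0% higher and 11.0% lower over all genes tested. The groups did not overlap for 3 of the 7, Kcne1 and Kcne4 above and Kcnk2 below WT, against 33.0% of all genes tested. The median difference of the 7 was 0.24, against 0.03 over all genes tested. Over both directions 10.7% of all genes tested were called, so 1 call among 7 genes is close to the background.

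**Figure D1:**
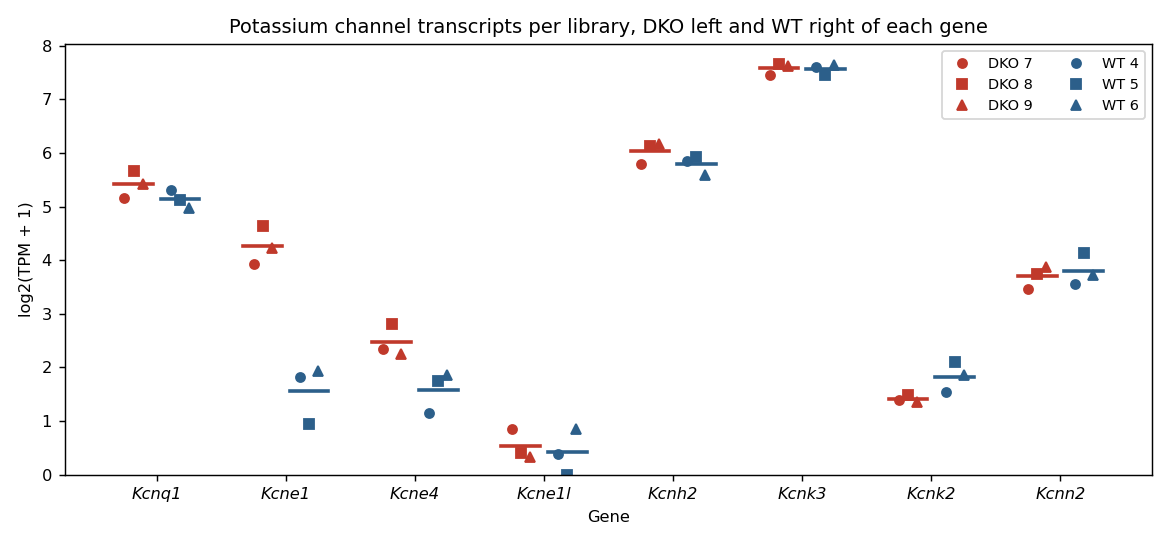
Levels of the 8 channel genes on the log2(TPM + 1) scale in the 3 DKO libraries (red, left) and 3 WT libraries (blue, right), with bars at the group means of that scale. Kcne1 stands apart between the groups, while Kcnk3, the most abundant, overlaps between them.

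Kcnq1 (ENSMUSG00000009545, chromosome 7, 143106877 to 143427050, plus strand, GRCm38) encodes the pore of the slow delayed rectifier. It had 34.7, 49.9 and 41.7 TPM in DKO 7, 8 and 9, against 38.8, 33.8 and 30.4 TPM in WT 4, 5 and 6. DKO 8 and DKO 9 lay above every WT library and DKO 7 within the WT range, so the groups overlapped. The difference was 0.28 (SE 0.15; 95% interval -0.08 to 0.64; limma, BH adjusted p = 0.296), and the exact two-sided permutation test over libraries gave p = 0.2. Without DKO 7 the difference was 0.41 (limma, BH adjusted p = 0.149), without DKO 8 it was 0.15 (0.594) and without WT 6 it was 0.20 (0.541). The long noncoding RNA Kcnq1ot1, an imprinted antisense transcript that starts within Kcnq1, had 47.2, 34.6 and 34.3 TPM in DKO against 28.5, 27.8 and 26.8 TPM in WT libraries, a difference of 0.45 (SE 0.13; limma, BH adjusted p = 0.0791). Its groups did not overlap, but the gene did not pass the threshold. In GENCODE M21, 121 of 4093 exon bases of the 7 Kcnq1 transcripts lie inside the Kcnq1ot1 span. The libraries are strand-specific, but whether quantification used strand is not given in the sources used here. Kcnq1 reads from these bases, or from unspliced Kcnq1 introns inside the span, therefore cannot be told apart from Kcnq1ot1 reads.

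Kcne1 (ENSMUSG00000039639, chromosome 16, 92346001 to 92359468, minus strand, GRCm38) encodes the subunit that slows the opening of KCNQ1 and enlarges its current. It had 14.3, 23.8 and 17.8 TPM in DKO 7, 8 and 9, against 2.54, 0.919 and 2.81 TPM in WT 4, 5 and 6. Every DKO library was above every WT library, with a wide gap between the groups. The group means were 18.6 ± 4.81 TPM in DKO and 2.09 ± 1.02 TPM in WT, a ratio of 8.90. The WT values lie near the filter of 1 TPM, with WT 5 below it. The size of the ratio thus rests on little signal in WT. The difference was 2.70 (SE 0.31; 95% interval 1.97 to 3.43; limma, BH adjusted p = 0.00552). An exact two-sided permutation test gave p = 0.1, the smallest that 3 against 3 libraries allow. The ratio lay between 6.96, without WT 5, and 10.8, without WT 6, when 1 library was left out, and the gene stayed called in all 6 of these fits. It was not called in 3 settings. With replicate 7 counted as WT the difference was 2.27 (limma, BH adjusted p = 0.501). With a term for sex-linked transcripts it was 2.66. With the 4 libraries with Y-linked transcripts alone, where DKO 9 stands against 3 WT libraries, it was also 2.66. The sex-linked term likewise leaves DKO 9 against the 3 WT libraries, so these equal estimates are not separate.

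Setting Kcne1 against Kcnq1 in the same library gives the transcript level of the partner relative to the pore. The ratio of Kcne1 TPM to Kcnq1 TPM was 0.413, 0.477 and 0.426 in DKO 7, 8 and 9, against 0.0655, 0.0272 and 0.0924 in WT 4, 5 and 6. The groups did not overlap, and the WT ratios rest on the low WT levels of Kcne1. On the log2 scale with 1 TPM added to each gene, the ratio was -1.15 ± 0.10 in DKO and -3.57 ± 0.57 in WT (SD, n = 3 each), a difference of 2.42 with p = 0.1 in the exact two-sided permutation test, again the smallest possible. Leaving out 1 library gave 2.12 to 2.69. The difference of the log2 ratio is that of Kcne1 less that of Kcnq1, so it is not separate from the Kcne1 result. DKO 7, whose Kcnq1 value was the lowest of its group, also had the lowest Kcne1 value of its group.

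**Figure D2:**
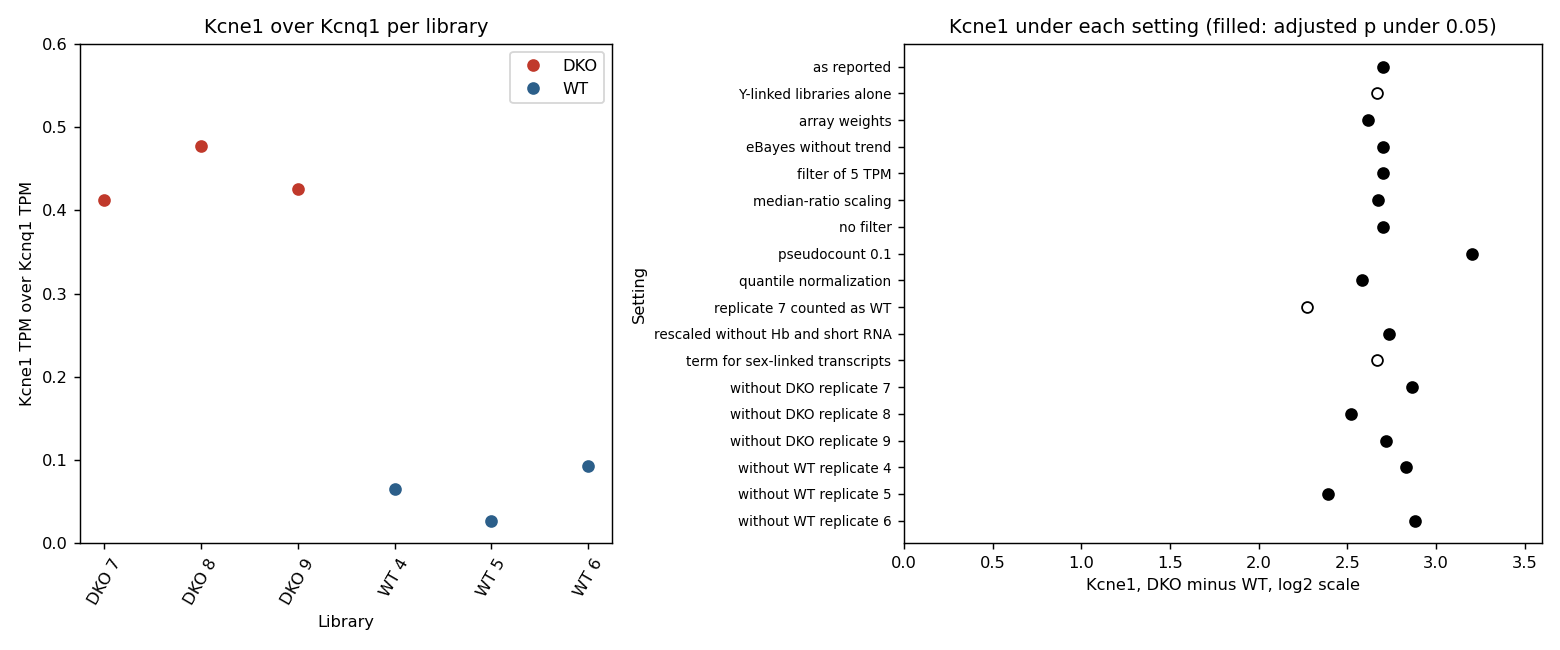
Left, Kcne1 TPM divided by Kcnq1 TPM in each library, with the DKO libraries at 0.413 to 0.477 and the WT libraries at 0.0272 to 0.0924. Right, the Kcne1 difference (DKO minus WT, log2 scale) as reported and under each of 17 alternative settings, filled where the limma adjusted p is under 0.05 and open in the 3 settings where it is not.

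Kcne4 (ENSMUSG00000047330, chromosome 1, 78816911 to 78820032, plus strand, GRCm38) encodes a related single-pass subunit that inhibits KCNQ1 current when both are expressed in cultured cells. It had 4.08, 6.00 and 3.76 TPM in DKO 7, 8 and 9, against 1.21, 2.38 and 2.62 TPM in WT 4, 5 and 6. All DKO values lay above all WT values, and DKO 9 and WT 6 were nearest to each other. The difference was 0.88 (SE 0.26; 95% interval 0.27 to 1.50; unadjusted p = 0.0117, limma, BH adjusted p = 0.0779), so the gene did not pass over all genes tested. It did not pass under any of 16 alternatives either (limma, BH adjusted p from 0.0614 to 0.511). The ratio of group means was 2.23, and 1.85 without WT 4, the WT library with the lowest value.

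Kcne1l (ENSMUSG00000090122, chromosome X, 142304753 to 142306198, minus strand, GRCm38), also named Kcne5, is called a pseudogene in the deposited description and protein-coding in RefSeq. It lay at 0.801, 0.333 and 0.258 TPM in DKO 7, 8 and 9 against 0.316, 0 and 0.804 TPM in WT 4, 5 and 6. No library reached 1 TPM, so it was not tested, and the groups overlapped. Of the remaining KCNE genes, Kcne2, whose product joins KCNH2 in expression systems, was listed at 0 in all 6 libraries. Kcne3 was at 0.881, 0 and 0.284 TPM in DKO against 1.27, 1.11 and 0.590 TPM in WT libraries, below the filter.

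Summed over the 5 KCNE genes, the level was 20.1, 30.1 and 22.1 TPM in DKO 7, 8 and 9, against 5.34, 4.40 and 6.83 TPM in WT 4, 5 and 6. Kcne1 made up 76.9% ± 4.93 of that sum in DKO and 36.6% ± 14.0 in WT (SD, n = 3 each). Kcne4 made up 19.1% ± 1.78 in DKO and 38.3% ± 15.7 in WT. The Kcne1 to Kcne4 ratio was 3.51, 3.97 and 4.72 in DKO 7, 8 and 9, against 2.10, 0.387 and 1.07 in WT 4, 5 and 6, so Kcne1 exceeded Kcne4 in every DKO library but not in WT 5. These shares describe transcripts, not assembled channels, and the WT shares rest on low levels.

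**Figure D3:**
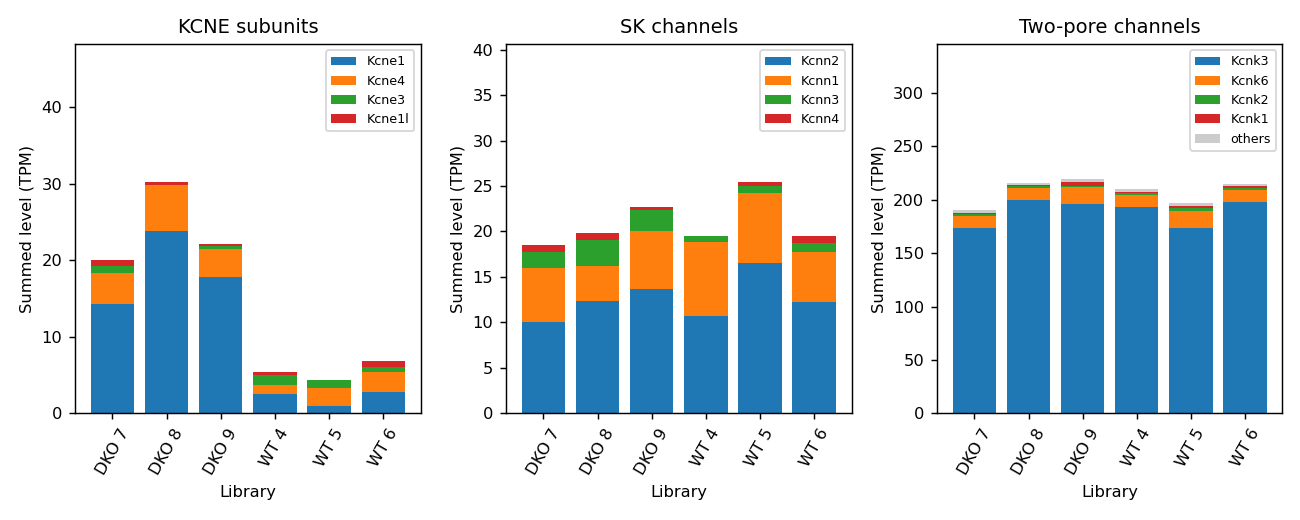
Stacked TPM of the KCNE subunits, SK channels and two-pore channels in each of 6 libraries, DKO left and WT right. The KCNE bars are 20.1 to 30.1 TPM in DKO and 4.40 to 6.83 TPM in WT libraries, with Kcne1 the largest part in each DKO library, while Kcnn2 and Kcnk3 hold the largest part of their families in every library.

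Kcnh2 (ENSMUSG00000038319, chromosome 5, 24319589 to 24351684, minus strand, GRCm38) encodes ERG1, the pore of the rapid delayed rectifier. It had 54.8, 68.6 and 71.1 TPM in DKO 7, 8 and 9, against 56.5, 59.6 and 47.3 TPM in WT 4, 5 and 6. As for Kcnq1, DKO 8 and DKO 9 lay above all WT libraries and DKO 7 among them. The difference was 0.24 (SE 0.13; 95% interval -0.07 to 0.56; limma, BH adjusted p = 0.287). Without DKO 7 it was 0.36 (limma, BH adjusted p = 0.136), and without WT 6, the lowest WT library, 0.15 (0.562). Kcnh2 made up 99.0% ± 0.388 of the summed TPM of the 8 KCNH genes in DKO and 99.3% ± 0.327 in WT. The gene has isoforms with different starts, ERG1a and ERG1b, which a gene-level value adds together.

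The RefSeq promoter table matched 4 of the 8 channel genes (Kcne4, Kcnh2, Kcnk2 and Kcne1l). The promoters of Kcne4 and Kcnh2, the tested delayed rectifier genes among them, are printed below. That of Kcne1l, which was not tested, is not printed. Each stretch runs 5′ to 3′ on the gene's strand, from 250 bases before the start site to 50 after it, from RefSeq on GRCm38.p6. Capitals mark matches, on either strand, of the TATA element (TATAAA), the CAAT box (CCAAT), the GC box (GGGCGG) and the palindromic E-box (CACGTG), none of which is contained in another. The Kcne4 stretch is chr1:78816661-78816960 on the plus strand. The Kcnh2 stretch is chr5:24329542-24329841 on the minus strand, at a start site 22093 bases inside the annotated gene.
Kcne4: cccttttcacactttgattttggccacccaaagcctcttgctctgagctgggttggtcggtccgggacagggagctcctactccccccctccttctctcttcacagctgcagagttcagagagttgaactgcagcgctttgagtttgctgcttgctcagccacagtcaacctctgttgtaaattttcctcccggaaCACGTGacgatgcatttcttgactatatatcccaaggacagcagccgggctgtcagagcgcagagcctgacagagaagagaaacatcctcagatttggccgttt
Kcnh2: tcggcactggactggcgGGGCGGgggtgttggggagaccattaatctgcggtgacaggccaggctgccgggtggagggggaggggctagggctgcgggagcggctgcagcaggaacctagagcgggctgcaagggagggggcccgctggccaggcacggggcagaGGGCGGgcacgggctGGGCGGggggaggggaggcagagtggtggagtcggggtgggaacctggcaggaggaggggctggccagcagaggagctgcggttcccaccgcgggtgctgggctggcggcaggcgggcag
The Kcne4 stretch holds 1 CACGTG, a motif found in 7.15% of the 32851 promoters of the table, and none of the other motifs. The Kcnh2 stretch holds 3 GGGCGG, a motif found at least once in 35.7% of promoters, and none of the others. TATAAA and CCAAT occur in 13.6% and 37.4% of promoters. G and C make up 52.7% of the Kcne4 stretch and 74.3% of the Kcnh2 stretch, against a median of 52.7% over all promoters. A match is only a match of letters.

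Kcnk3 (ENSMUSG00000049265, chromosome 5, 30588170 to 30625270, plus strand, GRCm38) encodes TASK-1, an acid-sensitive background channel, and was the most abundant of the 8 genes. It had 174, 200 and 196 TPM in DKO 7, 8 and 9, against 194, 174 and 198 TPM in WT 4, 5 and 6. The ranges of the groups nearly coincided. The difference was 0.01 (SE 0.08; 95% interval -0.18 to 0.21; limma, BH adjusted p = 0.948), so the interval runs from 0.880 to 1.16 as a ratio on this scale. Its sign turned in 5 alternatives, all within 0.05 of 0. Kcnk3 had the smallest spread of the 8 within both groups, with a coefficient of variation of 7.32% in DKO and 6.92% in WT.

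Kcnk2 (ENSMUSG00000037624, chromosome 1, 189207930 to 189402782, minus strand, GRCm38) encodes TREK-1, a background channel opened by stretch and by lipids. It had 1.62, 1.81 and 1.56 TPM in DKO 7, 8 and 9, against 1.91, 3.27 and 2.62 TPM in WT 4, 5 and 6. All DKO values lay below all WT values, but DKO 8 and WT 4 were close to each other. The difference was -0.42 (SE 0.20; 95% interval -0.90 to 0.07; limma, BH adjusted p = 0.244), and the gene was called in none of 16 alternatives (0.143 to 0.673). At this level a value rests on little signal, and the depth that would give its counting error is unknown. The RefSeq promoter table lists 4 Kcnk2 stretches, with 43.0% to 74.7% G and C, which the gene-level value does not separate.

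Of 12 other two-pore genes, 3 passed the filter, and 0 were called in either direction (limma; 0 also at an unadjusted p under 0.05). Kcnk6, encoding TWIK-2, was the most abundant, with 12.5 ± 2.34 TPM in DKO and 12.6 ± 2.93 TPM in WT (difference -0.0044, 95% interval -0.46 to 0.46; limma, BH adjusted p = 0.992). The other tested ones were Kcnk1, with 1.79 ± 1.17 TPM in DKO and 1.31 ± 0.345 TPM in WT, and Kcnk10, with 1.08 ± 0.169 TPM in DKO and 0.865 ± 0.255 TPM in WT. Kcnk7, Kcnk9, Kcnk15, Kcnk16 and Kcnk18 were listed at 0 in all 6 libraries. Kcnk3 made up 91.1% ± 1.53 of the TPM of the 14 two-pore genes in DKO and 90.8% ± 2.56 in WT (SD, n = 3 each).

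Kcnn2 (ENSMUSG00000054477, chromosome 18, 45268750 to 45685887, plus strand, GRCm38) encodes SK2, which couples intracellular calcium to repolarisation through bound calmodulin. It had 10.1, 12.4 and 13.7 TPM in DKO 7, 8 and 9, against 10.7, 16.6 and 12.3 TPM in WT 4, 5 and 6. The groups overlapped over most of their ranges. The difference was -0.11 (SE 0.19; 95% interval -0.55 to 0.33; limma, BH adjusted p = 0.763), with a sign that turned in 5 alternatives.

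The wider families held 2 more calls among genes at low level. Over all genes tested 10.7% were called, which is the background for each list of relatives, the two-pore genes included. With so few genes tested per list, these counts say little about the families. Of the 14 KCNQ, KCNH and KCNE relatives, Kcnq1ot1 included, 3 passed the filter and 1 was called, Kcnq5, a pore of the neuronal and vascular M-current family. It had 2.72, 1.61 and 1.80 TPM in DKO 7, 8 and 9, against 0.294, 0.366 and 0.0986 TPM in WT 4, 5 and 6, a difference of 1.27 (SE 0.23; limma, BH adjusted p = 0.0211). It rose in DKO, but all its WT values lay under 1 TPM, so it passed the filter only through the DKO libraries and was not tested when one of these was left out. Its call was lost without WT 4 (limma, BH adjusted p = 0.0509), without WT 6 (0.0634), with quantile normalization (0.0615), with the sex-linked term (0.221) and with replicate 7 as WT (0.617).

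Among 10 calcium- and sodium-activated relatives 5 passed the filter and 1 was called. Kcnn3, encoding SK3, had 1.80, 2.87 and 2.22 TPM in DKO 7, 8 and 9, against 0.747, 0.823 and 0.940 TPM in WT 4, 5 and 6. The difference was 0.83 (SE 0.20; limma, BH adjusted p = 0.0478). Kcnn3 too passed the filter only through the DKO libraries, and its call was lost without WT 4 (limma, BH adjusted p = 0.113), without WT 5 (0.0973), without WT 6 (0.102), with a pseudocount of 0.1 (0.0619), with quantile normalization (0.0819), with the sex-linked term (0.312) and with replicate 7 as WT (0.501). Kcnn2 remained the main SK transcript, with 59.2% ± 4.14 of the TPM of the 4 SK genes in DKO and 61.0% ± 5.54 in WT. Kcnn1 had 5.37 ± 1.37 TPM in DKO and 7.07 ± 1.39 TPM in WT (limma, BH adjusted p = 0.368). Kcnma1 and Kcnmb1, subunits of the large-conductance channel, and the sodium-activated Kcnt2 were not called (adjusted p = 0.593, 0.429 and 0.490 in limma).

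Proteins that hold, fold or regulate these channels were listed as partners. Of 27 symbols listed 26 had a row, all were tested, 2 were called higher and 3 lower, and 10 had an unadjusted p under 0.05. Over all genes tested 6.51% were called higher and 4.22% lower, and 27.0% had an unadjusted p under 0.05. Akap9, the anchoring protein that brings protein kinase A to KCNQ1, rose, with 45.0, 47.1 and 47.7 TPM in DKO 7, 8 and 9, against 33.7, 33.4 and 32.3 TPM in WT 4, 5 and 6, a difference of 0.48 (SE 0.07; limma, BH adjusted p = 0.0106). Cav3, the muscle caveolin, rose to 81.4 ± 1.91 TPM in DKO, against 64.0 ± 5.93 TPM in WT, a difference of 0.35 (limma, BH adjusted p = 0.0447). The catalytic kinase subunit Prkaca, at 310 ± 9.19 TPM in DKO and 265 ± 6.82 TPM in WT, missed the threshold narrowly (limma, BH adjusted p = 0.0501). The values of Akap9, Cav3 and Prkaca do not overlap between the groups. The same held for 11 of the 26 partners in either direction, against 33.0% of all genes tested. Akap5, also an anchoring protein of protein kinase A, lay lower in DKO without overlap. It had 4.70 ± 0.870 TPM in DKO and 7.48 ± 1.38 TPM in WT and was not called (limma, BH adjusted p = 0.104).

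The other 3 called partners fell. Canx, the endoplasmic reticulum chaperone calnexin, which binds immature KCNH2, had 176, 190 and 173 TPM in DKO 7, 8 and 9, against 268, 266 and 307 TPM in WT 4, 5 and 6, a difference of -0.64 (SE 0.08; limma, BH adjusted p = 0.00673). Dnaja1, a cytosolic co-chaperone, fell to 29.8 ± 2.54 TPM in DKO, against 46.6 ± 8.42 TPM in WT, a difference of -0.62 (limma, BH adjusted p = 0.0361). Csnk2a1, the casein kinase subunit that phosphorylates SK2-bound calmodulin, fell to 98.1 ± 5.13 TPM in DKO, against 125 ± 3.72 TPM in WT, a difference of -0.35 (limma, BH adjusted p = 0.0226). The Akap9 and Canx calls held in all 6 fits that left out 1 library, but like that of Kcne1 were lost with replicate 7 as WT, with the sex-linked term and with the Y-linked libraries alone (limma, BH adjusted p from 0.0739 to 0.511). The Cav3 and Csnk2a1 calls held in 1 of the fits without a library each and the Dnaja1 call in 0 (limma, BH adjusted p up to 0.123, 0.0741 and 0.101). They too were lost in those 3 settings (limma, BH adjusted p from 0.198 to 0.610) and with eBayes without trend (0.0899, 0.0643 and 0.0616), and those of Cav3 and Dnaja1 with no filter (0.0547 and 0.0528) and that of Cav3 with median-ratio scaling (0.0643). The 3 calmodulin genes, whose product is a subunit of KCNQ1 and SK2 channels, had intervals within -0.29 to 0.20 and were not called.

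In both groups Kcnk3 was the most abundant of the 8 genes, followed by Kcnh2 and Kcnq1, with no overlap between neighbours in this order. In DKO libraries Kcne1 came next, above Kcnn2, Kcne4, Kcnk2 and Kcne1l, and no neighbouring pair overlapped. In WT libraries Kcnn2 came next, Kcnk2, Kcne1 and Kcne4 followed with overlapping ranges, and Kcne1l was last. Kcne1 was thus below Kcnn2 in every WT library and above it in every DKO library.

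The genes whose pattern over the 6 libraries was most like that of Kcne1, by Pearson r of log2(TPM + 1) among 13120 genes ranked, were Wisp1, Rplp0 and Necap2. Wisp1, a secreted matricellular protein, had 6.01, 9.85 and 7.44 TPM in DKO 7, 8 and 9, against 1.31, 0.422 and 1.45 TPM in WT 4, 5 and 6 (r = 0.9997). Rplp0, a protein of the large ribosomal subunit, averaged 986 ± 52.6 TPM in DKO and 741 ± 45.2 TPM in WT (r = 0.998), and Necap2, an endocytosis adaptor, 35.6 ± 1.49 TPM in DKO and 17.2 ± 2.19 TPM in WT (r = 0.996). Each of the 3 had its lowest value in WT 5 and its highest in DKO 8, as Kcne1 did. They were picked for this likeness, so the shared order adds nothing to it. With 6 points in 2 groups and so many genes ranked, such r values describe these libraries only.

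Heart tissue holds several cell types, and in such bulk samples more cells of a type and more RNA per cell cannot be told apart. Of 12 tested markers of the conduction system, where Kcne1 is also expressed in mouse heart, 6 were called higher and 0 lower (8 at an unadjusted p under 0.05), against 6.51% higher and 4.22% lower over all genes tested, which are the background for each marker list here. The summed level of all 15 listed was 299 to 364 TPM in DKO and 189 to 206 TPM in WT libraries. The largest part of that sum, Smoc2, averaged 111 TPM in DKO and 71.8 TPM in WT, uncalled (limma, BH adjusted p = 0.0668). The pacemaker channel Hcn4 had 12.5 ± 2.50 TPM in DKO and 6.92 ± 1.06 TPM in WT (limma, BH adjusted p = 0.0401). The nodal factor Isl1 was listed at 0 in 5 of 6 libraries and at 0.137 TPM in DKO 9. The rise was not uniform. Gja5 lay lower in DKO with overlap (difference -0.64; limma, BH adjusted p = 0.272), as did the means of Cpne5 and Vsnl1, both below the filter. Tbx3 and Shox2 differed by 0.07 and 0.09 (limma, BH adjusted p = 0.803 and 0.854). Macrophage markers had 4 of 8 called higher and 0 lower (332 to 441 TPM in DKO, 151 to 228 TPM in WT), and fibroblast markers 3 of 8 higher and 0 lower (1676 to 2095 TPM in DKO, 1743 to 1864 TPM in WT). Smooth muscle and pericyte markers had 1 of 10 higher and 2 lower (726 to 927 TPM in DKO, 762 to 808 TPM in WT), and endothelial markers 0 of 8 higher and 2 lower (613 to 729 TPM in DKO, 661 to 781 TPM in WT). Neuron and Schwann cell markers had 0 of 4 called (1 at an unadjusted p under 0.05; 25.0 to 29.3 TPM in DKO, 17.7 to 23.7 TPM in WT), with Th listed at 0. Erythroid markers had 0 of 5 called, with 5 at an unadjusted p under 0.05 in limma. Their sum was 1781 to 6763 TPM in DKO and 6042 to 38458 TPM in WT, highest in WT 5, the library lowest in Kcne1. That sum joins unlike patterns. Hbb-bs had 1690, 1.15 and 0.892 TPM in DKO 7, 8 and 9, against 1436, 14183 and 5293 TPM in WT 4, 5 and 6. Hba-a1 had 3096, 1115 and 1407 TPM in DKO 7, 8 and 9, against 2596, 13606 and 4951 TPM in WT 4, 5 and 6. DKO 7 lay within the WT range for both genes, and the cause was not tested. Atrial markers had 0 of 9 higher and 1 lower, the potassium channel gene Kcna5. Their sum was 2558 to 4281 TPM in DKO and 495 to 6907 TPM in WT, with WT 4 highest. Ventricular markers had 0 of 4 higher and 1 lower, the potassium channel gene Kcnd2 (30143 to 33715 TPM in DKO, 29834 to 32132 TPM in WT). The part of these shifts in the Kcne1 difference was not tested. Without WT 4 that difference was 2.83 (limma, BH adjusted p = 0.0152), and without WT 5 it was 2.39 (0.0095). Rescaled without haemoglobin and structural or short RNA it was 2.73 (limma, BH adjusted p = 0.00169).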

How the data were processed

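RNA of 6 mouse heart libraries was profiled, per the labels' protocols, with a strand-specific total RNA kit. The authors deposited 1 table of TPM values, 1 per gene and library, over 24525 rows. The submitters' processing notes name kallisto 0.44.0, bcl2fastq and mm10. Which annotation was quantified, and how transcripts became genes, is not given in the sources used here. Depth is unknown, so no counting interval is given. TPM is relative to the library total, so a change in abundant RNAs shifts other values.

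Groups follow the titles. Genes reaching 1 TPM in 3 or more libraries were fitted with limma 3.58.1 in R 4.3.3 (eBayes with trend) on log2(TPM + 1), adjusted over all genes tested. The fit was tested on simulated data with independent normal noise. These hold no sex or labelling differences, so that test does not bear on them. Single values used exact permutation over libraries. Figures were drawn with matplotlib 3.10.9. Positions come from the RefSeq table of GRCm38.p6, transcripts from GENCODE M21. Named genes are the channel genes, every called gene of each list of relatives and partners (or the 5 smallest p, or the most abundant if none), and the 3 most like each called channel gene. Kcnq1ot1, Kcne2, Kcne3, Prkaca, Akap5, the markers named, the calmodulin genes and the other uncalled relatives were named after their values were seen. 1 tested relative is not reported here. Members and lists were chosen with earlier results of these data known. Alternatives were pseudocount 0.1, no filter, a 5 TPM filter, 3 scalings, array weights, eBayes with no trend, replicate 7 as WT, a sex-linked term, the Y-linked libraries alone and each library left out.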

Additional observations from a re-analysis of the deposited data

How the results depend on the processing

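The count of channel genes called, 1 higher and 0 lower, was the same in 14 of 17 alternatives; with replicate 7 as WT, with a term for sex-linked transcripts and with the Y-linked libraries alone it was 0 and 0 (limma; 3, 1 and 1 higher and 0 lower at an unadjusted p under 0.05). The filter of 5 TPM left 5 of the channel genes tested, and Kcne1 passed it only through the DKO libraries. Leaving out each library kept 1 higher and 0 lower. Over all genes, 946 were higher and 614 lower. These were 44 and 48 with the sex-linked term, 8 and 21 with the Y-linked libraries alone, where a lone DKO library is assumed to vary like the WT group, and 0 and 1 with replicate 7 as WT (limma; 1153 and 286 at an unadjusted p under 0.05). Leaving out each library gave 333 to 572 higher and 274 to 376 lower, and eBayes without trend 397 lower. The fits without a library and with the Y-linked libraries alone hold fewer samples. Xist exceeded Ddx3y in DKO 7 and DKO 8 and in no WT library. The sex-linked term therefore leaves DKO 9 against the WT libraries, the same difference as with the Y-linked libraries alone. For the other changes the cause was not tested.

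The log2 ratio of Kcne1 to Kcnq1 kept its direction in all 12 alternatives that bear on it, from 1.87 to 2.92, and in leave-one-out values from 2.12 to 2.69. With replicate 7 as WT its exact two-sided permutation test gave p = 0.2. Its difference contains that of Kcne1 and is no independent check of it. The ratio was not recomputed under settings that change only the filter or the fit. The Kcne1 difference lay between 2.27 and 3.21. Small differences turned sign. Kcnk3 was -0.023 with median-ratio scaling, -0.0055 when rescaled without haemoglobin and short RNA, and -0.046 to 0.074 with 1 library left out. Kcnn2 was 0.070 with the sex-linked term and with the Y-linked libraries alone, 0.087 with replicate 7 as WT, and -0.24 to 0.057 with 1 library left out. Kcnk6 was 0.27 with the sex-linked term and with the Y-linked libraries alone, 0.10 with array weights, 0.14 with replicate 7 as WT, and -0.14 to 0.17 with 1 library left out. No paired analysis was possible because the groups share no replicate numbers. Low genes, such as Kcnk2, Kcnq5, Kcnn3 and, in WT libraries, Kcne1, are limited by a depth that TPM does not keep.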
